A study of Mus musculus with 10 samples.

Results

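Neutrophils sorted from mouse lungs were compared between animals carrying a highly metastatic and animals carrying a low metastatic human breast tumour. These are 5 of the study's 10 libraries, chosen by sample title. TN1 neutrophils came from NOD/scid mice with tumour HCl-001, the highly metastatic one, and comprise the libraries tag_191 and tag_482. TN2 neutrophils came from NOD/scid mice with tumour HCl-002, the low metastatic one, and comprise tag_367, tag_706 and tag_1341. All mice were taken at end point, and no tumour-free mice are among the libraries. The other 5 libraries hold CCR2+ monocytes under the same tags and served here only as a measure of monocyte RNA and for 1 test of the tumour difference between the cell types.

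Each tumour is 1 transplanted tumour, so metastatic capacity and any other property of that tumour cannot be told apart. NOD/scid hosts lack functional T and B lymphocytes, which leaves the innate cells as the main immune cells of the lung. The labels do not say whether tags are separate animals, give no age of the mice and no time to end point, so the p-values refer to the variation among samples, part of which may be technical. These are bulk libraries, in which fewer cells of a type and less RNA per cell cannot be told apart.

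Neutrophils are short-lived granulocytes that leave the bone marrow with most of their granule proteins already made. Azurophil granule genes are transcribed at the promyelocyte stage, specific granule genes at the myelocyte stage, and gelatinase and secretory vesicle genes last, so that a mature neutrophil in tissue carries little granule mRNA of the first kind. In the lung, neutrophils have been described both as helpers of arriving tumour cells and as killers of them, and interferons are among the signals linked to the second state. Interferon gamma acts through its receptor, JAK kinases and transcription factors that bind the gamma-activated sequence (GAS). Type I interferons act through a complex with STAT2 and IRF9 that binds the interferon-stimulated response element (ISRE).

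The sorted cells carried neutrophil RNA. The 20 neutrophil markers, all detected, summed to 164920 to 242720 TPM (a level corrected for transcript length) in the neutrophil libraries and to 1572 to 11091 TPM in the monocyte libraries. By mean TPM the most abundant genes included S100a8, S100a9, Il1b, Fth1, Cd14, Srgn, Actg1, B2m and Tmsb4x, a list with the calgranulin genes, interleukin 1 beta and the lipopolysaccharide co-receptor gene Cd14. Libraries held 8788542 to 11311370 estimated counts. At least 5 counts were reached by 11812, 8863, 11816, 12041 and 9730 genes, in the order TN1 tag_191, TN1 tag_482, TN2 tag_367, TN2 tag_706, TN2 tag_1341, an order that all lists of values keep.

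A pair of libraries stood apart. TN1 tag_482 had the fewest genes and the largest share of TPM on mitochondrially encoded genes, 3.11% against 0.297% to 0.873%, and lay alone on the first principal component, which held 52.7% of the variance. Its Spearman correlation with the other libraries over the genes tested was 0.734 to 0.781, while TN1 tag_191 correlated at 0.916 with TN2 tag_706. TN2 tag_1341 had the next fewest genes, lay alone on the second component (27.5%), and held the highest sum of the 20 monocyte markers. This sum was 4363 TPM, against 2076 to 2641 TPM in the other neutrophil libraries and 6225 to 12263 TPM in the monocyte libraries. In each neutrophil library most of it came from Nr4a1 and Plac8. Nr4a1 stood at 1129 to 2105 TPM in the neutrophil libraries, above its 328 to 1242.5 TPM in monocytes for most libraries. Plac8 stood at 1519 TPM in TN2 tag_1341 and at 595 to 734 TPM in the other neutrophil libraries. Neither the number of genes detected (exact permutation test over 5 libraries, two-sided, p = 0.5) nor the total count (p = 0.6) nor the mitochondrial share (p = 0.5) differed between the tumours beyond the spread, in a test whose smallest possible p is 0.1. Where leaving out both TN1 tag_482 and TN2 tag_1341, which leaves 1 library against 2, moved a log2 difference by over 1.5 times, the value without this pair follows it.

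**Figure D1:**
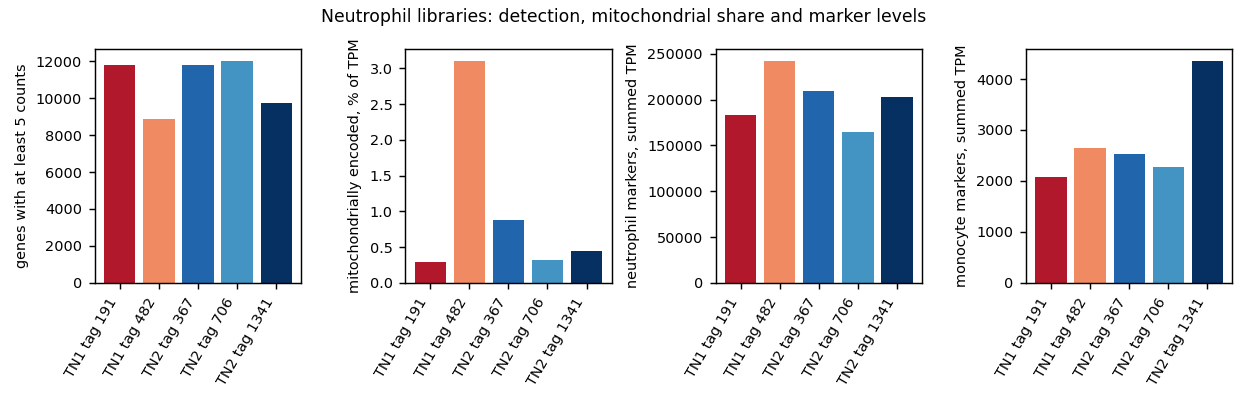
Bars give, for each of the 5 neutrophil libraries, the number of genes with at least 5 estimated counts, the percentage of TPM on mitochondrially encoded genes, and the summed TPM of 20 neutrophil and 20 monocyte markers. TN1 tag_482 has the fewest genes and a mitochondrial share of 3.11%, and TN2 tag_1341 has a monocyte marker sum of 4363 TPM. Most of the monocyte marker sum of each library comes from Nr4a1 and Plac8.

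No gene passed the test between the tumours. Of 10916 genes tested with edgeR's quasi-likelihood test, 0 (0%) had a Benjamini-Hochberg adjusted p under 0.05, the smallest adjusted p was 0.996, and 315 had an unadjusted p under 0.05 (179 higher and 136 lower in TN2) where 546 would be expected without any difference. The spread between libraries was wide, with a biological coefficient of variation of 0.808 and 3 residual degrees of freedom. DESeq2 called 8 genes on the same counts, all higher in TN2 (among them Irgc1, Spon1, Pik3ip1, Slc15a4, Klhl6, F13a1 and BC018473), and limma-voom called 0. Every TN2 library lay above both TN1 libraries for 1200 genes (11%) and below both for 984 genes (9.01%), and these shares are the background for all counts of non-overlapping genes. The median log2 difference of all genes, TN2 minus TN1, was 0.06. Since every gene had an adjusted p of at least 0.996 by edgeR, each is described by its values, with the log2 difference as coded TN2 minus TN1 and its standard error (SE). Levels are in CPM, with library sizes normalized by TMM. Overlap between the groups was judged in CPM and can differ in TPM.

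Among 29 lists of genes with a shared function, interferon gamma response genes had the highest median log2 difference, followed by type I interferon-stimulated, chemokine ligand, class II antigen presentation and nucleic acid sensing genes. Mitochondrially encoded, lipid and eicosanoid, extracellular trap and glycolysis genes had the lowest. In each of the 29 lists 0 members passed the test. The order depended on which libraries were in the fit. Without TN1 tag_191 the interferon gamma median of 0.96 lay below death ligands and receptors (1.44), chemokine ligands (1.19) and nucleic acid sensing genes (1.0). Without TN1 tag_482 it was 0.69, below type I interferon-stimulated (0.81), mitochondrially encoded (0.80), nucleic acid sensing (0.74) and class II (0.73) genes, and without TN2 tag_367 it was 0.91, below type I genes at 0.94. Without the pair it was 0.41, below mitochondrially encoded (0.94), cell cycle (0.49) and ribosomal protein (0.47) genes. On log2(TPM + 1) with no filter the type I and interferon gamma medians were 0.652 and 0.646. Other lists whose median changed sign without the pair were death ligands and receptors (-0.16), pattern recognition (-0.25), gelatinase granule and secretory vesicle (-0.31), chemoattractant receptor (-0.21), NF-kB (-0.13), adhesion and migration (-0.0572) and interferon receptor and signalling genes (-0.0291).

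**Figure D2:**
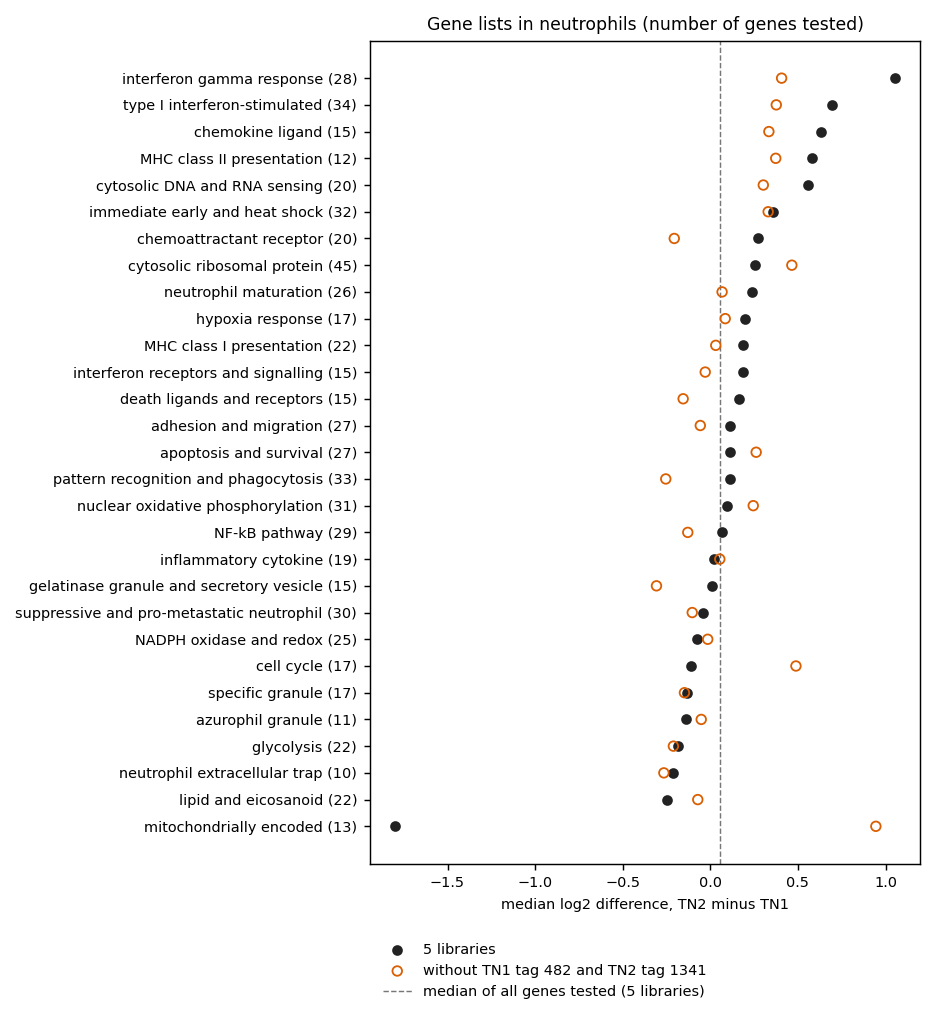
The horizontal axis is the median log2 difference, TN2 minus TN1, over the tested genes of each list named on the vertical axis, with the number tested in brackets, for all 5 libraries (filled) and without the 2 libraries that stood apart (open). Interferon gamma response genes lie highest at 1.06 (0.41 without the 2 libraries), and mitochondrially encoded genes move from -1.80 to 0.94.

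Interferon gamma response genes had the highest median over the 5 libraries. Of its 32 members 28 were tested, 23 had a positive difference, 11 did not overlap and were higher in TN2 (39.3% of those tested, against 11% of all genes), and 1, Cd274, did not overlap and was lower. The median log2 difference was 1.06, and 0.69 to 1.12 with each library left out in turn. The median level of the members was 5.68 and 5.97 log2(CPM + 1) in the TN1 libraries and 6.61, 6.22 and 6.96 in the TN2 libraries, so that each TN2 library lay above each TN1 library. Without TN1 tag_482 and TN2 tag_1341, which leaves 1 library against 2, the median was 0.41, where that of all genes was 0.07.

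The members with the smallest p were immunity-related GTPases, which interferon gamma induces to attack the vacuoles of intracellular pathogens. Irgm2 (chromosome 11, 58199618 to 58222782, GRCm38) stood at 38.3 and 44.8 CPM in TN1 and 86.8, 66.7 and 89.8 CPM in TN2 (log2 difference 0.96 ± 0.32 SE). Both TN1 libraries lay below all TN2 libraries, and the nearest were TN1 tag_482 and TN2 tag_706. Igtp (chromosome 11, 58199556 to 58207591) stood at 77.4 and 94.6 CPM in TN1 and 184, 131 and 159 CPM in TN2 (log2 difference 0.88 ± 0.30), again without overlap and with TN2 tag_367 the highest. The annotated spans of Irgm2 and Igtp overlap, so reads of shared exons could be split between them. Tgtp2 (chromosome 11, 49057194 to 49064206) stood at 7.99 and 17.0 CPM in TN1 and 40.8, 23.1 and 61.9 CPM in TN2 (log2 difference 1.75 ± 0.61), without overlap, and counts could likewise be split with its close copy Tgtp1. Without TN1 tag_482 and TN2 tag_1341 the log2 difference was 1.0 for Irgm2, 1.02 for Igtp and 1.99 for Tgtp2.

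Promoters are shown because both interferon lists had the highest medians over the 5 libraries. Those printed belong to the members of smallest p among members that hold a match and do not overlap between the groups. A match in each printed promoter was therefore set in advance by this choice. The 3 that hold both motifs in the same arrangement are all immunity-related GTPase genes. The 250 bases before the RefSeq start (GRCm38.p6) were searched for GAS, TTCNNNGAA, and for the core of an ISRE, GAAANNGAA or its reverse complement TTCNNTTTC, both on either strand, where an overlap of the 2 motifs was allowed. Of 32851 promoters in that set, 7.02% held a GAS match and 7.13% an ISRE core match. Of the 22 interferon gamma list genes with a promoter in the table, 11 (50%) held a GAS and 13 (59.1%) an ISRE core match in any of their promoters, against 8.13% and 8.18% of 27025 genes. Capitals mark the matches, and the sequences run 5′ to 3′ on the gene's strand.
Irgm2, chr11:58214727-58214976, plus strand: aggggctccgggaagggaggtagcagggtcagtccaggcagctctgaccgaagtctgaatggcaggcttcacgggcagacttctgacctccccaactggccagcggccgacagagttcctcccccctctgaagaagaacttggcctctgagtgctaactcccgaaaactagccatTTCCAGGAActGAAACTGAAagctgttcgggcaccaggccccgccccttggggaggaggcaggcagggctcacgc
Igtp, chr11:58199306-58199555, plus strand: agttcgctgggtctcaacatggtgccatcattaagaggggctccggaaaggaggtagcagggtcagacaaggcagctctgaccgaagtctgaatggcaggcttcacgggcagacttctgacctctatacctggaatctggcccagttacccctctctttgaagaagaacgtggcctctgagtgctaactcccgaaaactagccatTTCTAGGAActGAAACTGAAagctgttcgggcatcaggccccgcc
Tgtp2, chr11:49064213-49064462, minus strand: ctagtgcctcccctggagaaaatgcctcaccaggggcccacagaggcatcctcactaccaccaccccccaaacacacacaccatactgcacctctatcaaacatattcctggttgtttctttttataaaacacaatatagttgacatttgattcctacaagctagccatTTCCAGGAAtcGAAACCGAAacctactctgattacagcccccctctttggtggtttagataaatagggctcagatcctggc
Cxcl10, chr5:92348890-92349139, minus strand: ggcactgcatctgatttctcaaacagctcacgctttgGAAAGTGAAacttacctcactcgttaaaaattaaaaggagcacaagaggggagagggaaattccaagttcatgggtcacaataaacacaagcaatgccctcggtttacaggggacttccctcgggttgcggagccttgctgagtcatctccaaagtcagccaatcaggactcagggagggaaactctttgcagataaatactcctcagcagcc
In Irgm2, Igtp and Tgtp2 a GAS match was followed on the same strand by an ISRE core match, 75 and 64, 45 and 34, and 81 and 70 bases before the start. The 9-base matches were the same distance apart in all 3, and those of Irgm2 and Igtp shared the ISRE letters. Cxcl10 held 1 ISRE core match, 213 bases before its start, and no GAS match in this window. A match is a description of these letters and not a measured binding site.

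Cxcl10, a chemokine that draws CXCR3-bearing cells and is induced by interferon, stood at 19.2 and 23.8 CPM in TN1 and 33.9, 51.6 and 165 CPM in TN2 (log2 difference 1.96 ± 0.71, and 1.15 without the pair). The groups did not overlap, and TN2 tag_1341 was the highest by a wide margin. Psmb8, encoding an immunoproteasome subunit, was also without overlap and higher in TN2 (127 and 141 CPM in TN1 and 185, 166 and 227 CPM in TN2). So was the peptide transporter gene Tap1 (108 and 105 CPM in TN1 and 202, 119.8 and 214 CPM in TN2). The interferon-induced transcription factor gene Irf1 overlapped at 194 and 375 CPM in TN1 and 581, 315 and 432 CPM in TN2 (log2 difference 0.64 ± 0.40, and 1.20 without the pair), with TN1 tag_482 above TN2 tag_706. Cd274, encoding PD-L1, a T-cell inhibitory ligand, went the other way at 637 and 508 CPM in TN1 and 325, 372 and 478 CPM in TN2 (log2 difference -0.55 ± 0.29, and -0.87 without the pair). The inducible nitric oxide synthase gene Nos2 was at 0 in TN1 tag_482 and TN2 tag_1341 and at most 4.43 CPM elsewhere. Ciita, the master regulator of class II genes, had at most 6 counts in a library and was not tested.

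**Figure D3:**
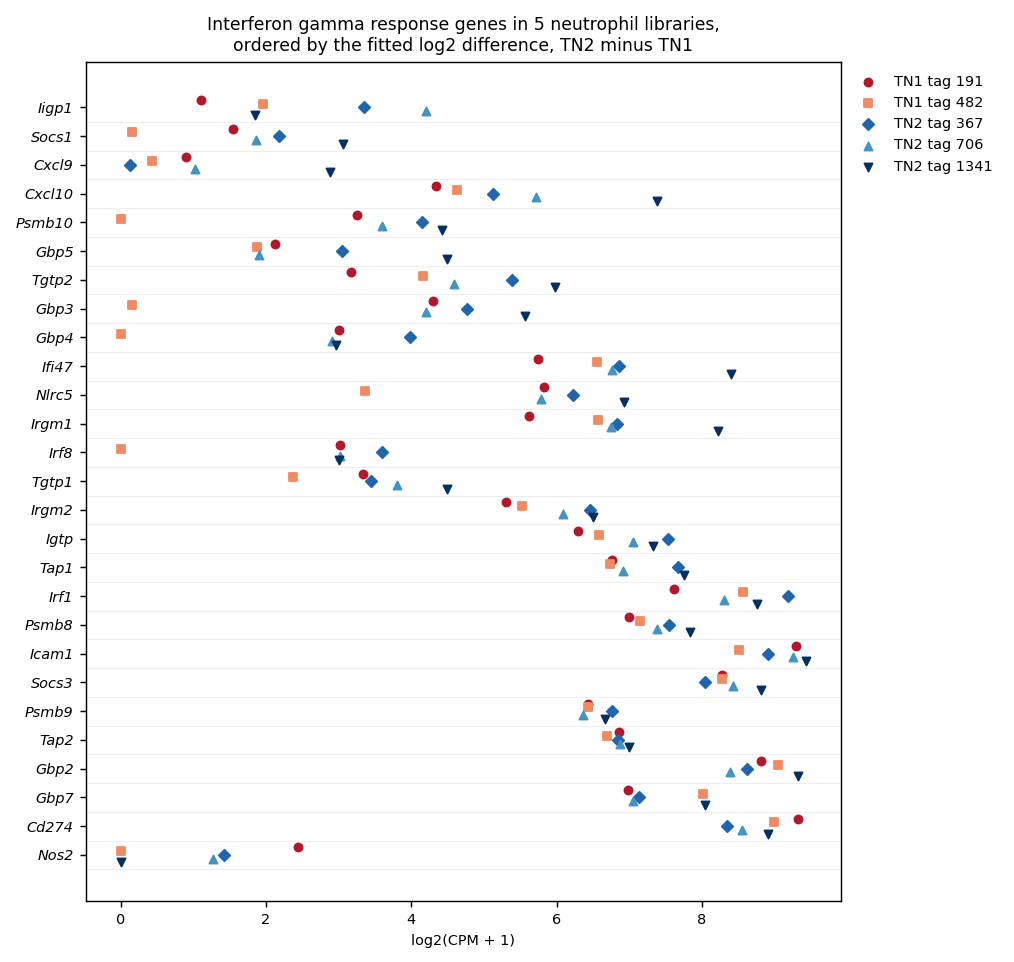
Each row is 1 of 27 of the 28 tested interferon gamma response genes, and each point is its log2(CPM + 1) in 1 of the 5 neutrophil libraries, ordered by the fitted log2 difference. The blue TN2 symbols lie to the right of both red TN1 symbols in 11 rows, among them Irgm2, Igtp, Tgtp2 and Cxcl10, and to the left of both for Cd274.

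Receptor and signalling genes stood near the background as a list. Of 15 tested, 9 had a positive difference, with a median of 0.18. Without overlap, 1 was higher (6.67%, against 11% of all genes) and 1 was lower (6.67%, against 9.01%). The receptor gene Ifngr1 was at 419 and 444 CPM in TN1 and 375, 446 and 522 CPM in TN2 (log2 difference 0.05 ± 0.27, and -0.0291 without the pair). Its partner Ifngr2 stood at 170.0 and 97.5 CPM in TN1 and 150.2, 164 and 247 CPM in TN2 (log2 difference 0.49 ± 0.37, and -0.11 without the pair). Both overlapped between the groups. Stat2, encoding a transcription factor of the type I response, was at 74.6 and 29.6 CPM in TN1 and 123, 57.3 and 159.9 CPM in TN2 (log2 difference 1.12 ± 0.56, and 0.27 without the pair), where TN2 tag_706 lay between the TN1 libraries. Socs1, a feedback inhibitor of JAK kinases, was low at 1.92 and 0.116 CPM in TN1 and 3.54, 2.65 and 7.37 CPM in TN2 (log2 difference 2.12 ± 1.45, and 0.68 without the pair), without overlap.

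Type I interferon-stimulated genes had 31 of 34 members with a positive difference, with a median of 0.69. Of them 12 were without overlap and higher in TN2 (35.3% of those tested, against 11% of all genes) and 0 without overlap and lower (against 9.01%). Their median level was 6.51 and 7.23 log2(CPM + 1) in TN1 and 7.07, 7.08 and 8.73 in TN2, so that TN1 tag_482 lay above TN2 tag_367 and TN2 tag_706, and TN2 tag_1341 stood far above the other 4. The median difference was 0.31 without TN2 tag_1341 and 0.38 without both TN1 tag_482 and TN2 tag_1341. Bst2, encoding the virus-tethering protein tetherin, stood at 6.25 and 17.2 CPM in TN1 and 22.9, 23.7 and 70.0 CPM in TN2 (log2 difference 1.73 ± 0.74). Ifit2, encoding an inhibitor of viral RNA translation, stood at 53.2 and 103 CPM in TN1 and 117, 130.5 and 515 CPM in TN2 (log2 difference 1.70 ± 0.73). In both genes the groups did not overlap, TN2 tag_367 and TN2 tag_706 lay just above TN1 tag_482, and TN2 tag_1341 was the highest. Isg15, the ubiquitin-like effector, overlapped at 1363 and 1228 CPM in TN1 and 1091, 1985 and 2076 CPM in TN2 (log2 difference 0.41 ± 0.36, and 0.18 without the pair). Of the 25 list genes with a promoter in the table, 5 (20%) held a GAS and 12 (48%) an ISRE core match.

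Genes that sense cytosolic DNA and RNA had 18 of 20 tested members positive, with a median of 0.56 (0.30 without TN1 tag_482 and TN2 tag_1341). Without overlap, 6 were higher in TN2 (30%, against 11% of all genes) and 0 lower (against 9.01%). The RNA sensor gene Ddx58 stood at 90.2 and 75.9 CPM in TN1 and 121, 117 and 208 CPM in TN2 (log2 difference 0.84 ± 0.36, and 0.40 without the pair). The Z-form nucleic acid sensor gene Zbp1 stood at 115 and 126 CPM in TN1 and 169.6, 173 and 405 CPM in TN2 (log2 difference 1.05 ± 0.45, and 0.57 without the pair). Both did not overlap in CPM, and the CPM values of TN2 tag_367 and TN2 tag_706 lay close to each other in each gene. In TPM this did not hold for Ddx58, at 55.2 and 42.2 in TN1 and 93.1, 53.9 and 84.5 in TN2. There TN2 tag_706 lay below TN1 tag_191. Ifi204, of a family of DNA-binding interferon-inducible proteins, stood at 3.37 and 3.37 CPM in TN1 and 7.26, 4.07 and 32.4 CPM in TN2 (log2 difference 2.11 ± 1.07, and 0.74 without the pair), with TN2 tag_706 only just above the TN1 libraries. Tmem173, encoding the sensing adaptor STING, was low but without overlap at 1.54 and 0 CPM in TN1 and 4.19, 6.05 and 8.56 CPM in TN2 (log2 difference 2.99 ± 1.65, and 1.73 without the pair).

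The monocyte markers went along with these lists. Of 19 tested, 14 had a positive difference, with a median of 1.15. Without overlap, 6 were higher in TN2 (31.6%, against 11% of all genes) and 1 lower (5.26%, against 9.01%). Without TN2 tag_1341 their median was 0.19 and that of the interferon gamma list 0.70, while without both TN1 tag_482 and TN2 tag_1341 they were 0.81 and 0.41. Their part in the interferon results was not tested.

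Genes of antigen presentation on MHC class II, a set that mature neutrophils express at low level, had 9 of 12 tested members positive. Their median was 0.58 (0.37 without TN1 tag_482 and TN2 tag_1341). Without overlap, 5 were higher in TN2 (41.7%, against 11% of all genes) and 1, Cd40, was lower (8.33%, against 9.01%). H2-Ab1, the class II beta chain (chromosome 17, 34257689 to 34269419), stood at 26.1 and 38.9 CPM in TN1 and 125, 85.5 and 72.5 CPM in TN2 (log2 difference 1.54 ± 0.39). The groups did not overlap, and here TN2 tag_367 and not TN2 tag_1341 was the highest. Cd74, the invariant chain that guides class II molecules, was likewise highest in TN2 tag_367 at 97.5 and 108 CPM in TN1 and 219, 164 and 203 CPM in TN2 (log2 difference 0.93 ± 0.28), without overlap. H2-DMb2, a chain of the peptide exchange factor, was low at 1.06 and 0.348 CPM in TN1 and 3.54, 4.07 and 7.70 CPM in TN2 (log2 difference 2.83 ± 1.23, and 1.83 without the pair). In the monocyte libraries H2-Ab1 was at 3298 to 20041 TPM, against 30.8 to 168 TPM in the neutrophil libraries. Class I presentation genes had 18 of 22 positive members and a median of 0.19. Without overlap, 3 were higher (13.6%, near the 11% of all genes) and 1 lower (4.55%, against 9.01%). Nlrc5, the activator of class I genes, stood at 55.9 and 9.29 CPM in TN1 and 73.6, 54.1 and 121 CPM in TN2 (log2 difference 1.34 ± 0.74, and 0.19 without the pair) with overlap, being low in TN1 tag_482 alone.

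The genes with the smallest p in the direction of TN2 were mostly at or near 0 in both TN1 libraries. Irgc1, of the immunity-related GTPase family (chromosome 7, 24431922 to 24452297), had 0 counts in TN1 and stood at 4.10, 9.55 and 24.4 CPM in TN2, at least 76.7-fold higher against a floor of 3 counts over the TN1 group. Spon1, encoding the matrix protein F-spondin (chromosome 7, 113765998 to 114043370), stood at 0.674 and 0.929 CPM in TN1 and 8.66, 14.5 and 31.1 CPM in TN2 (log2 difference 4.48 ± 0.95). In both genes TN2 tag_1341 was the highest and neither TN1 library reached 1 CPM. Pik3ip1, a restraint on PI3 kinase, stood at 0.385 and 0 CPM in TN1 and 8.20, 9.26 and 23 CPM in TN2 (log2 difference 5.99 ± 1.47). Slc15a4, a lysosomal histidine and peptide transporter that endosomal Toll-like receptors need, stood at 1.92 and 0.232 CPM in TN1 and 12.3, 18.9 and 37.0 CPM in TN2 (log2 difference 4.36 ± 1.10). Klhl6, a substrate adaptor of a ubiquitin ligase, stood at 2.89 and 0 CPM in TN1 and 27.7, 29.4 and 113 CPM in TN2 (log2 difference 5.26 ± 1.47). Without TN1 tag_482 and TN2 tag_1341 the fitted log2 differences of Spon1, Pik3ip1, Slc15a4 and Klhl6 were 4.08, 4.46, 3.01 and 3.30, in a fit with 1 TN1 library in which 108 genes passed.

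At lower levels, Spata2l and Utp15, the latter a ribosome biogenesis factor, had 0 counts in TN1 and were at least 29.2-fold and 20.5-fold higher in TN2. Togaram1, a microtubule regulator of cilia, had 1 count in TN1 and 209 in TN2, a ratio of 130 after scaling (95% exact interval 23.1 to 5160, counting error only). BC018473, annotated as an antisense RNA (chromosome 11, 116752167 to 116759373), was far more abundant at 699 and 413 CPM in TN1 and 1178, 1945 and 2062 CPM in TN2 (log2 difference 1.64 ± 0.40), without overlap. Whether the counting used strand is not given in the sources used here, so its reads and those of the overlapping gene cannot be told apart.

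Among genes at a mean of at least 20 CPM, the gap between the nearest libraries of the groups was among the widest for Klhl6, F13a1, S100a10, Arl13b, Ogfr, Zbtb16 and Gm4070. S100a10, the annexin A2 partner, stood at 2.31 and 3.60 CPM in TN1 and 12.1, 9.74 and 99.5 CPM in TN2. The opioid growth factor receptor gene Ogfr stood at 7.31 and 16.3 CPM in TN1 and 31.7, 49.2 and 240.2 CPM in TN2. Arl13b, a GTPase of cilia, had TN1 libraries closer to the rest, at 11.7 and 6.39 CPM in TN1 and 32.2, 23.5 and 38.4 CPM in TN2. The zinc finger factor gene Zbtb16 stood at 13.8 and 0.116 CPM in TN1 and 28.9, 26.8 and 37.8 CPM in TN2. Gm4070 stood at 31.4 and 0 CPM in TN1 and 62.7, 59.4 and 149 CPM in TN2. In Zbtb16 and Gm4070 the low value was that of TN1 tag_482, and TN1 tag_191 lay between it and the TN2 libraries. F13a1, a coagulation factor subunit made by monocytes and macrophages, stood at 1.15 and 0.465 CPM in TN1 and 4.38, 4.44 and 126 CPM in TN2 (log2 difference 5.75 ± 1.88, and 1.92 without the pair), almost all of it in TN2 tag_1341. S100a10 and Ogfr had their highest value in the same library. Without the pair the log2 difference was 2.23 for S100a10 (3.77 with it), 1.01 for Zbtb16 (2.16) and 0.96 for Gm4070 (2.52).

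Part of these genes were abundant in monocytes. Of the 18 genes that the naming rule gave as higher, 9 had a mean TPM over the monocyte libraries above every neutrophil library, and 7 were higher in each monocyte than in each neutrophil library. Of the 15 genes given as lower, these counts were 1 and 0. The same counts over all genes tested were not made. Spon1 was at 68.5 to 94.2 TPM in monocytes, against 2.12, 2.80 and 6.71 TPM in TN2 neutrophils. F13a1 reached 34.6 TPM in TN2 tag_1341 and 120 to 433 TPM in monocytes. Irgc1, in contrast, was at 2.05 to 9.50 TPM in monocytes and at 3.56, 7.05 and 16.1 TPM in TN2 neutrophils, and BC018473 was lower in monocytes (147 to 607 TPM) than in TN2 neutrophils (1261 to 1868 TPM). Over the 20 monocyte markers the median level in percent of the monocyte mean was 4.14% and 3.67% in the TN1 libraries and 9.30%, 3.69% and 13.3% in the TN2 libraries. In this measure TN2 tag_706 lay between the TN1 libraries. For Spon1 alone the percentages were 0.17% and 0.22% in TN1 and 2.80%, 3.69% and 8.86% in TN2. Ccr2, the receptor on which the monocytes were sorted, stood at 8.37 and 12.1 CPM in TN1 and 9.96, 2.46 and 55.8 CPM in TN2 in neutrophil libraries (log2 difference 1.15 ± 1.17, and -0.44 without the pair). Ly6c2, the classical monocyte marker, stood at 9.53 and 18.8 CPM in TN1 and 15.0, 14.5 and 131 CPM in TN2 (log2 difference 1.92 ± 1.07, and 0.63 without the pair). Both were high in TN2 tag_1341 alone. Csf1r, the receptor for macrophage colony-stimulating factor and the marker of this lineage, ran the other way at 200.3 and 192 TPM in TN1 and 168, 156 and 145 TPM in TN2. The part of monocyte RNA in these differences was not tested.

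**Figure D4:**
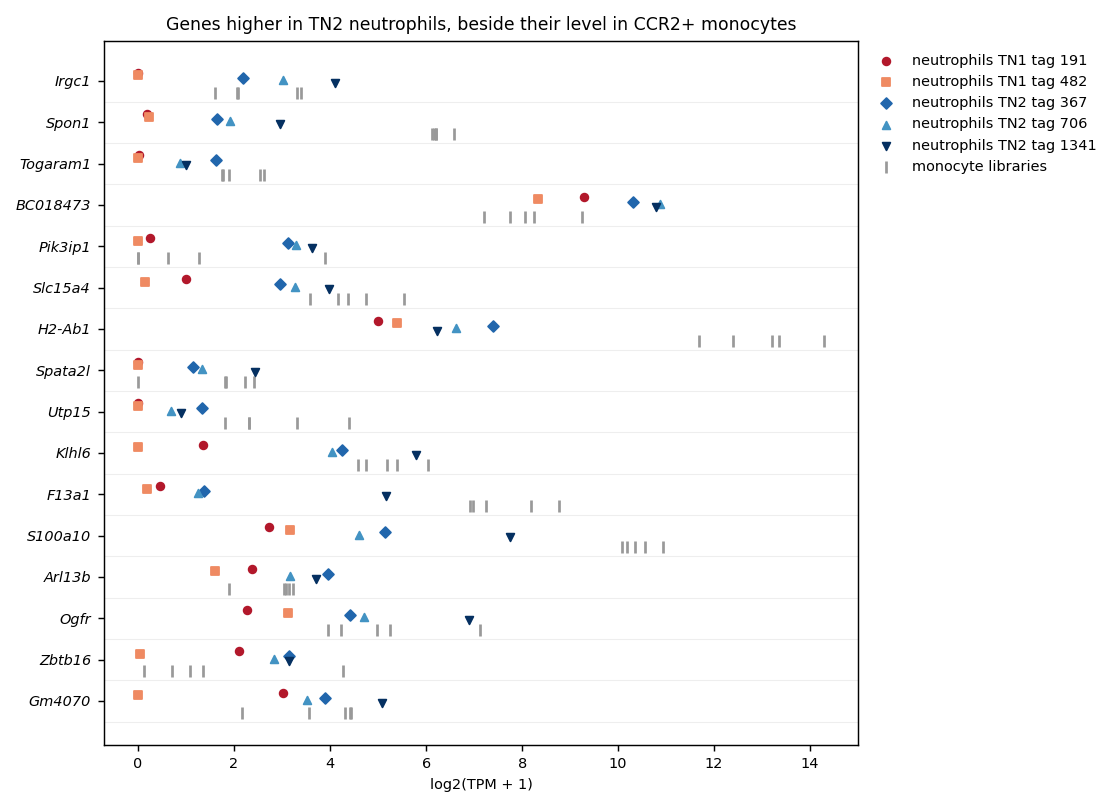
Coloured symbols give log2(TPM + 1) of 16 genes higher in TN2 in each of the 5 neutrophil libraries, and grey ticks the same in the 5 monocyte libraries. Spon1 lies at 68.5 to 94.2 TPM in monocytes, above all neutrophil libraries, and BC018473 lies at 1261 to 1868 TPM in TN2 neutrophils, above all monocyte libraries.

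In the direction of TN1, the smallest p among genes with even levels in both TN1 libraries belonged to Txnl1 and Cebpz. Txnl1, encoding a thioredoxin-like protein of the proteasome (chromosome 18, 63661094 to 63708801), stood at 171 and 219 CPM in TN1 and 78.0, 98.9 and 62.8 CPM in TN2 (log2 difference -1.29 ± 0.31). Cebpz, a CCAAT-binding nucleolar factor (chromosome 17, 78919006 to 78937066), stood at 118 and 172 CPM in TN1 and 72.0, 58.0 and 58.4 CPM in TN2 (log2 difference -1.21 ± 0.30). Neither overlapped between the groups, and the TN2 libraries of Cebpz lay close together. Tmem268, a membrane protein gene, stood at 54.5 and 66.3 CPM in TN1 and 15.6, 19.1 and 28.5 CPM in TN2 (log2 difference -1.52 ± 0.41). Mat2b, a regulatory subunit of S-adenosylmethionine synthesis, stood at 576 and 447 CPM in TN1 and 194, 316 and 216 CPM in TN2 (log2 difference -1.08 ± 0.31). Birc2, encoding the ubiquitin ligase cIAP1, stood at 90.7 and 195 CPM in TN1 and 50.7, 62.9 and 56.3 CPM in TN2 (log2 difference -1.34 ± 0.38, and -0.68 without the pair). All 3 were lower in each TN2 library. The widest gaps between the groups in this direction added 5 more genes. The ubiquitin ligase gene Trim39 stood at 54.2 and 46.6 CPM in TN1 and 24.6, 26.4 and 18.5 CPM in TN2. Btbd9, a BTB domain gene, stood at 41.9 and 59.5 CPM in TN1 and 24.4, 25.8 and 17.5 CPM in TN2. The transcription factor gene Grhl1 stood at 50.6 and 84.2 CPM in TN1 and 13.2, 31.4 and 22.4 CPM in TN2, with its lowest value in TN2 tag_367. Nfx1, a zinc finger factor gene, stood at 23.3 and 46.6 CPM in TN1 and 14.2, 12.6 and 3.58 CPM in TN2, lowest in TN2 tag_1341. The splicing helicase gene Dhx38 had the tightest groups at 326 and 367.3 CPM in TN1 and 211, 209 and 180.1 CPM in TN2. The log2 differences of these 10 genes lay between -0.80 for Dhx38 and -1.78 for Nfx1. Without the pair those of Nfx1 and Btbd9 were -0.80 and -0.74.

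A further group was lower in TN2 mainly through a high value in TN1 tag_482. Gm10718 and Gm10719 are neighbouring predicted genes on chromosome 9 whose reads could be split between them. Gm10718 stood at 1.44 and 259 CPM in TN1 and 0.838, 0.567 and 1.30 CPM in TN2. Gm10719 stood at 10.4 and 162 CPM in TN1 and 7.45, 5.01 and 5.31 CPM in TN2. The kinetochore gene Nuf2 showed the same pattern at 1.06 and 8.6 CPM in TN1 and 0.0931, 0 and 0 CPM in TN2, with 85 counts in TN1 and 1 in TN2. The spindle gene Spag5 did so too in CPM, at 1.44 and 21.8 CPM in TN1 and 0.373, 0.473 and 0.325 CPM in TN2. In TPM its TN1 libraries lay closer together, at 3.34 and 7.86, both above 1.47, 0.42 and 0.97 in TN2. The log2 differences of Gm10718, Gm10719 and Spag5 were -7.16, -3.86 and -4.85, and without the pair -1.03, -0.74 and -1.74. Gm20663, an antisense RNA that overlaps Gm4070, had 52 counts in TN1 and 0 in TN2, at least 27.9-fold lower, while Gm4070 itself was higher in TN2. As a list, cell cycle genes had 8 of 17 tested members positive and 1 without overlap and lower (5.88%, against 9.01% of all genes). The DNA replication gene Mcm3 was at 0.577 and 17.2 CPM in TN1 and 0.0931, 2.36 and 2.06 CPM in TN2 (log2 difference -2.55 ± 1.62, and 1.08 without the pair).

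Granule genes had medians near 0, and Ltf and Camp, of the myelocyte stage, spread widely between libraries. Of 17 tested specific granule genes 5 were positive, with a median of -0.13. Without overlap, 2 were higher (11.8%, near the 11% of all genes) and 1 was lower (5.88%, against 9.01%). Ltf, encoding lactoferrin, stood at 943 and 3566 CPM in TN1 and 1476, 54.5 and 157 CPM in TN2 (log2 difference -2.0 ± 1.23, and -0.31 without the pair). Camp, encoding cathelicidin, stood at 189 and 1147 CPM in TN1 and 492, 5.11 and 34.6 CPM in TN2 (log2 difference -1.92 ± 1.52, and 0.38 without the pair). Both were highest in TN1 tag_482 and lowest in TN2 tag_706, and TN2 tag_367 lay above TN1 tag_191. Olfm4, a marker of a neutrophil subset, was the non-overlapping member that was lower, at 206 and 292 CPM in TN1 and 95, 121 and 156 CPM in TN2 (log2 difference -1.0 ± 0.32). The members without overlap that were higher, named after their values were seen, were Orm1, an acute phase protein gene, and Ceacam1, an adhesion receptor gene. Orm1 stood at 1.06 and 0 CPM in TN1 and 9.78, 1.13 and 5.09 CPM in TN2. Ceacam1 stood at 39.5 and 39.03 CPM in TN1 and 41.5, 52.0 and 85.5 CPM in TN2. In both the nearest libraries of the groups lay close together. Azurophil genes were nearly silent, since Elane and Ctsg, the elastase and cathepsin G genes, had at most 5 counts in a library and the myeloperoxidase gene Mpo at most 1.96 CPM, and the 11 tested members had a median of -0.14. The elastase inhibitor gene Serpinb1a stood at 18.9 and 86.5 CPM in TN1 and 29.1, 12.3 and 17.0 CPM in TN2 (log2 difference -1.44 ± 0.68, and 0.13 without the pair), high in TN1 tag_482. Gelatinase granule and secretory vesicle genes gave a positive difference in 8 of 15 members (median 0.01), and Mmp9, encoding gelatinase B, stood at 1874 and 1411 CPM in TN1 and 1879, 2108 and 2003 CPM in TN2 (log2 difference 0.28 ± 0.29, and 0.0893 without the pair).

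Maturation genes leaned slightly to TN2, while the identity genes Csf3r and S100a8 overlapped between the groups. Of 26 maturation genes 18 were positive, with a median of 0.24 (0.07 without TN1 tag_482 and TN2 tag_1341). Of these genes 6 were without overlap higher (23.1%, against 11% of all genes) and 1 lower (3.85%, against 9.01%). The stefin gene Stfa2l1 stood at 255 and 241 CPM in TN1 and 354, 463 and 744 CPM in TN2 (log2 difference 1.07 ± 0.37, and 0.68 without the pair), where multigene copies could share reads. Spi1, encoding the myeloid factor PU.1, stood at 153 and 116 CPM in TN1 and 179, 209 and 260.0 CPM in TN2 (log2 difference 0.69 ± 0.30, and 0.35 without the pair). Both were without overlap and highest in TN2 tag_1341. Wfdc17, a secreted antiprotease-like gene, went the other way at 806 and 659 CPM in TN1 and 567, 474 and 266 CPM in TN2 (log2 difference -0.75 ± 0.36). Ly6g, the surface marker of mouse neutrophils, stood at 70.0 and 53.8 CPM in TN1 and 91.5, 76.3 and 79.3 CPM in TN2 (log2 difference 0.41 ± 0.30, and 0.26 without the pair). The growth factor receptor gene Csf3r stood at 6256 and 5936 CPM in TN1 and 4762, 5719 and 6585 CPM in TN2 (log2 difference -0.10 ± 0.31, and -0.26 without the pair). The alarmin gene S100a8 stood at 12380.3 and 21479 CPM in TN1 and 12151, 9199 and 14695 CPM in TN2 (log2 difference -0.49 ± 0.40, and -0.22 without the pair). Cybb, the catalytic subunit of the oxidase, stood at 208 and 683 CPM in TN1 and 295, 105 and 317 CPM in TN2 (log2 difference -0.90 ± 0.61, and -0.0657 without the pair). The differences of Cybb, Csf3r and S100a8 were within the spread between libraries of a tumour.

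Chemokine ligand genes had 14 of 15 tested members positive, with a median of 0.63 (0.33 without TN1 tag_482 and TN2 tag_1341). Of these genes 4 were without overlap higher (26.7%, against 11% of all genes) and 0 lower (against 9.01%). Beside Cxcl10 they include Ccl2, which recruits CCR2-bearing monocytes. Ccl2 was low and without overlap at 2.02 and 0.232 CPM in TN1 and 5.96, 4.25 and 17.3 CPM in TN2 (log2 difference 3.0 ± 1.32, and 1.33 without the pair). Ccl6, an abundant chemokine of myeloid cells, stood at 1320.2 and 1372 CPM in TN1 and 1175, 2363 and 2598 CPM in TN2 (log2 difference 0.60 ± 0.39). For Ccl6 TN2 tag_367 lay below both TN1 libraries. Of chemoattractant receptor genes 16 of 20 were positive with a median of 0.27, which became -0.21 without TN1 tag_482 and TN2 tag_1341. Cxcr2, the receptor for mobilization from marrow, stood at 1403 and 1393 CPM in TN1 and 1349, 1552 and 2206 CPM in TN2 (log2 difference 0.28 ± 0.32, and 0.0481 without the pair). Cxcr4, the receptor for retention and return, stood at 87.9 and 51.5 CPM in TN1 and 75.6, 139.7 and 92.0 CPM in TN2 (log2 difference 0.56 ± 0.40, and 0.29 without the pair). The chemerin-binding receptor gene Ccrl2 stood at 3570.4 and 4109 CPM in TN1 and 4168, 5136 and 6988 CPM in TN2 (log2 difference 0.50 ± 0.35). Adora2b, an adenosine receptor gene (log2 difference 4.37, and 0.16 without the pair), reached 84.1 CPM in TN2 tag_1341 and 0.232 to 3.07 CPM elsewhere. Adhesion and migration genes had 15 of 27 positive and 6 without overlap, all higher in TN2 (22.2%, against 11% of all genes). Of these, Spon1, F13a1 and Fn1 (2.12 and 13.4 CPM in TN1 and 15.9, 25.1 and 149 CPM in TN2) are also abundant in monocytes.

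Inflammatory cytokine genes were near even as a list (10 of 19 positive, median 0.02). Of these, 5 did not overlap and were higher in TN2 (26.3%, against 11% of all genes) and 0 lower (against 9.01%). Tnf, encoding tumour necrosis factor, stood at 46.7 and 10.5 CPM in TN1 and 73.3, 52.4 and 303 CPM in TN2 (log2 difference 2.32 ± 0.95, and 0.43 without the pair). Csf1, encoding macrophage colony-stimulating factor, stood at 25.4 and 8.25 CPM in TN1 and 46.2, 55.8 and 131 CPM in TN2 (log2 difference 2.20 ± 0.68, and 1.01 without the pair). In both TN1 tag_482 was the lowest and TN2 tag_1341 the highest, and for Tnf TN2 tag_706 lay just above TN1 tag_191. Il1b, the most abundant cytokine gene, overlapped at 17571 and 16599.9 CPM in TN1 and 17017, 18264 and 25120.0 CPM in TN2 (log2 difference 0.24 ± 0.36, and 0.0053 without the pair). Death ligand and receptor genes had 4 of 15 without overlap higher (26.7%, against 11% of all genes) and 1 lower (6.67%, against 9.01%). Tnfsf9, encoding the ligand of 4-1BB, had 1 count in TN1 and 137 in TN2, a ratio of 85.2 after scaling (95% exact interval 15.1 to 3391), and Tnfsf10, encoding TRAIL, stood at 1.15 and 0.348 CPM in TN1 and 1.49, 7.37 and 6.18 CPM in TN2 (log2 difference 2.71 ± 1.34). Tnfsf14, encoding LIGHT, was lower in TN2 at 95.3 and 179 CPM in TN1 and 32.9, 87.8 and 30.9 CPM in TN2 (log2 difference -1.44 ± 0.54, and -0.65 without the pair), without overlap.

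Genes linked to suppressive or metastasis-promoting neutrophils showed no common direction, with 14 of 30 positive and a median of -0.04. Without overlap, 3 were higher (10%, near the 11% of all genes) and 4 lower (13.3%, against 9.01%). Thbs1, encoding thrombospondin 1, overlapped between the groups at 4903 and 2865 CPM in TN1 and 1484, 2724 and 5853 CPM in TN2 (log2 difference -0.21 ± 0.58, and -1.22 without the pair). For this gene TN2 tag_367 and TN2 tag_706 lay below both TN1 libraries, and TN2 tag_1341 lay above both. Vegfa, encoding an angiogenic growth factor, stood at 65.8 and 42.2 CPM in TN1 and 76.8, 60 and 40.1 CPM in TN2 (log2 difference 0.13 ± 0.41, and 0.054 without the pair). Ptgs2, encoding cyclooxygenase 2, stood at 1399.8 and 1149 CPM in TN1 and 1231, 1030.3 and 1513 CPM in TN2 (log2 difference -0.02 ± 0.30, and -0.31 without the pair). Arg1, the arginase gene used to define suppressive myeloid cells, had too few counts to be tested. Oxidase and redox genes were positive in 10 of 25 cases, at a median of -0.07. Srxn1, encoding sulfiredoxin, which restores peroxiredoxins, was lower without overlap in CPM, at 37.9 and 18.5 CPM in TN1 and 7.82, 15.8 and 4.01 CPM in TN2 (log2 difference -1.61 ± 0.72). In TPM the groups overlapped for Srxn1, at 103.8 and 7.53 in TN1 and 6.60, 24.6 and 2.73 in TN2. There TN1 tag_191 stood high alone and TN2 tag_706 lay above TN1 tag_482. Of 10 genes tied to extracellular traps 3 were positive, and Padi4, whose enzyme citrullinates histones, stood at 50.5 and 98.3 CPM in TN1 and 45, 25.7 and 54.0 CPM in TN2 (log2 difference -0.84 ± 0.46, and -0.52 without the pair), with overlap.

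**Figure D5:**
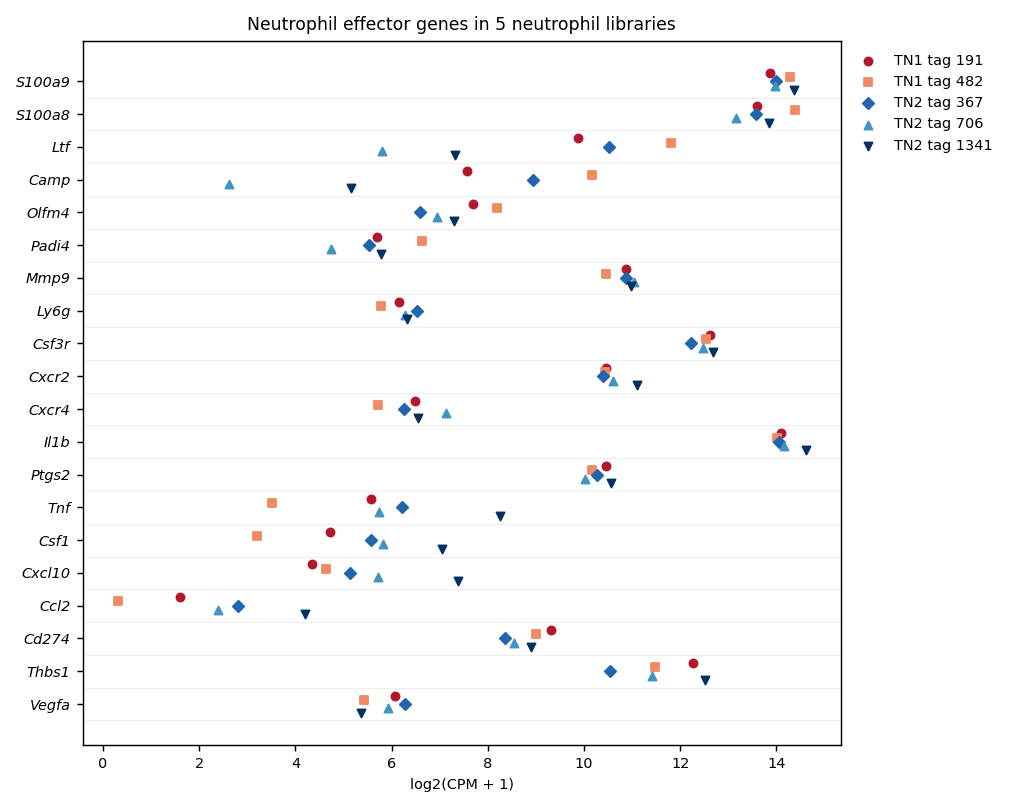
Points give log2(CPM + 1) of granule, receptor, cytokine and chemokine genes in each of the 5 neutrophil libraries. Ltf and Camp spread widely between libraries of a tumour, Cxcr2, Csf3r and Il1b little, and Tnf, Csf1, Cxcl10 and Ccl2 have all TN2 symbols to the right of both TN1 symbols.

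Immediate early and heat shock genes, which also respond to handling of cells, had 26 of 32 members positive, 7 without overlap higher and 1 lower, and a median of 0.36 (0.33 without TN1 tag_482 and TN2 tag_1341). The transcription factor gene Egr1 stood at 214 and 56.7 CPM in TN1 and 326, 405 and 566 CPM in TN2 (log2 difference 1.68 ± 0.58, and 0.77 without the pair). Ier2 stood at 54.1 and 91.3 CPM in TN1 and 109, 120.2 and 320.0 CPM in TN2 (log2 difference 1.33 ± 0.55). The phosphatase gene Dusp1 stood at 5419.7 and 3253 CPM in TN1 and 6231, 7407 and 11186 CPM in TN2 (log2 difference 0.93 ± 0.42, and 0.33 without the pair). None of the 3 overlapped, and TN2 tag_1341 was the highest in each. NF-kB pathway genes gave a positive difference in 16 of 29 members (median 0.07), among them Nfkbid, an atypical inhibitor protein gene, at 135 and 87.0 CPM in TN1 and 228, 168 and 462 CPM in TN2 (log2 difference 1.37 ± 0.49, and 0.55 without the pair). Survival and apoptosis genes gave a positive difference in 16 of 27 members (median 0.11). The survival kinase gene Pim1 stood at 43.8 and 45.5 CPM in TN1 and 141, 70.3 and 126 CPM in TN2 (log2 difference 1.33 ± 0.39). The caspase gene Casp8 stood at 16.0 and 17.0 CPM in TN1 and 35.2, 25.9 and 58.5 CPM in TN2 (log2 difference 1.28 ± 0.50). Neither gene overlapped between the groups. The pattern recognition list had 20 of 33 positive, and its adaptor gene Myd88 stood at 400.3 and 394 CPM in TN1 and 480.3, 507 and 626 CPM in TN2 (log2 difference 0.44 ± 0.27).

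Among metabolic lists, glycolysis and pentose phosphate genes leaned to TN1. Of 22 tested, 17 had a negative difference, with a median of -0.19 and a range of -0.29 to -0.06 with each library left out. In each TN2 library 5 were lower (22.7%, against 9.01% of all genes) and 1 higher (4.55%, against 11%). G6pdx, the first enzyme of the pentose phosphate branch, stood at 308 and 529 CPM in TN1 and 231, 222 and 270.3 CPM in TN2 (log2 difference -0.80 ± 0.31, and -0.44 without the pair). The transketolase gene Tkt stood at 169.6 and 264 CPM in TN1 and 135, 149 and 122 CPM in TN2 (log2 difference -0.68 ± 0.30, and -0.26 without the pair). The aldolase gene Aldoa stood at 657 and 798 CPM in TN1 and 408, 489.9 and 602 CPM in TN2 (log2 difference -0.54 ± 0.28). In each TN1 tag_482 was the highest library. Lipid and eicosanoid genes had 13 of 22 negative and 4 without overlap lower (18.2%, against 9.01% of all genes), with 4.55% higher (against 11%). Pla2g4a, whose phospholipase releases arachidonic acid, stood at 13.6 and 21.4 CPM in TN1 and 6.98, 7.85 and 8.24 CPM in TN2 (log2 difference -1.18 ± 0.61). Lta4h, which makes leukotriene B4, stood at 41.2 and 82.7 CPM in TN1 and 40.0, 29.2 and 36.7 CPM in TN2 (log2 difference -0.81 ± 0.41, and -0.25 without the pair). Hypoxia response genes were positive in 12 of 17 cases (median 0.20).

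Mitochondrially encoded genes, all 13 negative with a median of -1.80, rested on 1 library. The cytochrome b gene mt-Cytb stood at 129.5 and 2918 CPM in TN1 and 445, 178 and 191.2 CPM in TN2 (log2 difference -2.49 ± 1.03, and 1.26 without the pair), and TN1 tag_191 was below all TN2 libraries. Without TN1 tag_482 the median was 0.80. Nuclear genes of oxidative phosphorylation gave a positive difference in 17 of 31 members (median 0.09). Without overlap, 8 were higher in TN2 (25.8%, against 11% of all genes) and 1 lower (3.23%, against 9.01%). The complex I gene Ndufv2 stood at 8.47 and 11.2 CPM in TN1 and 28.5, 17.7 and 22.2 CPM in TN2. Cytosolic ribosomal protein genes had 39 of 45 positive, with a small median of 0.25. Of these genes 9 were without overlap higher (20%, against 11% of all genes) and 0 lower (against 9.01%). Rps3 stood at 87.1 and 89.2 CPM in TN1 and 128, 113 and 117 CPM in TN2 (log2 difference 0.44 ± 0.27).

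Markers of other cells of the lung were mostly low. Endothelial markers summed to 100.3 and 241 TPM in TN1 and to 399.8, 265 and 3.97 TPM in TN2, with 0 of 13 tested members without overlap. Epithelial markers summed to 95.7 to 282 TPM, stromal markers to 33.7 to 132 TPM and lymphocyte markers to 26.8 to 75.9 TPM, with the T and B cell genes Cd3e, Trac and Igkc at 0 in every neutrophil library. Some other members of that list were not at 0. Cd3d stood at 16.1 to 33.9 TPM in the neutrophil libraries, against 0.786 to 9.58 TPM in monocytes, and Ighm at 9.10 to 49.5 TPM, against 55.1 to 191.1 TPM in monocytes. Natural killer cell markers were at 47.7 and 1.42 TPM in TN1 and at 52.2, 4.11 and 0.437 TPM in TN2. Alveolar macrophage markers summed to 201 to 1205 TPM. They include Chil3, also in the specific granule list, at 2318 and 11592 counts in TN1 and 6455, 1292 and 13111 counts in TN2. Of the 15 alveolar macrophage markers, 6 had at most 10 counts in each neutrophil library. Interstitial macrophage markers summed to 36.2 to 122 TPM. Dendritic cell markers summed to 77.0 and 61.0 TPM in TN1 and to 109, 101 and 152 TPM in TN2 without overlap. This separation rested on Bst2, also an interferon-stimulated gene, at 13.1 and 32.7 TPM in TN1 and 55.1, 48.6 and 127.7 TPM in TN2. Without Bst2 the sums of the dendritic cell markers overlapped between the groups. Xcr1, a receptor of cross-presenting dendritic cells, was lower in each TN2 library at 2.41 and 5.11 CPM in TN1 and 0.373, 1.23 and 0.108 CPM in TN2.

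Whether the tumour difference was particular to neutrophils was tested as the difference between the neutrophil and the monocyte effect in a fit of all 10 libraries. Of 13398 genes 0 (0%) passed (edgeR, smallest adjusted p = 0.349) and 472 had an unadjusted p under 0.05, while DESeq2 called 21. H2-Ab1 ran in opposite directions, with 12384 and 3754 CPM in TN1 and TN2 monocytes and a difference of effects of 3.39 ± 0.74, as did Cd74 (13426 and 4604 CPM, 2.60 ± 0.59). Irgm2 ran the same way in both cell types, at 11.6 and 41.8 CPM in monocytes, as did Igtp (27.1 and 84.9 CPM) and Cxcl10 (27.1 and 79.6 CPM).

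In the authors' deposited table for the same neutrophil comparison, 771 of 28987 genes had p under 0.05 and 0 had an adjusted p under 0.05 (smallest 0.430). For 95% of the 27409 matched genes, the group values of that deposited table were within 0.01 of the mean log2(TPM + 1) of the libraries.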

How the data were processed

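RNA of sorted neutrophils (2 TN1 and 3 TN2 libraries) and CCR2+ monocytes (5 libraries) was amplified by Smart-seq2, which carries no molecular identifiers. The authors pseudoaligned reads with kallisto 0.42.3 against the GRCm38 transcriptome, per the labels. The deposited tables give, per the file headers, an estimated count and a TPM for each of 85276 transcripts, and a deposited comparison table gives log2 group means with p-values from AltAnalyze, whose test is not given in the sources used here.

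GENCODE mouse release 21 assigned transcripts to 29972 genes, over which values were added up (96.1% of transcripts matched; the 3349 unmatched held 1.92% to 2.98% of neutrophil counts and were left out). Estimated counts were rounded and fitted on the 5 neutrophil libraries with edgeR 4.0.16 in R 4.3.3 (filterByExpr by group, 10 counts or more in total, TMM, quasi-likelihood F test, Benjamini-Hochberg over all genes, threshold 0.05). The test was checked on simulated counts. The SE is the absolute log2 difference over the square root of F. Alternatives were DESeq2 1.42.0, limma 3.58.1 (voom, log2(TPM + 1) and log2(TPM + 0.1)), other normalization and filters, and leaving out libraries. The fit without both TN1 tag_482 and TN2 tag_1341 was chosen after seeing the data. Groups with 0 counts were set to a floor of 3 counts over the group.

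The libraries compared, the 29 gene lists and the 13 marker lists were chosen with earlier results of these data known. Genes named are the 10 of smallest p per direction, the 8 of largest gap between the groups per direction at a mean of at least 20 CPM, the 3 of smallest p in each list, members that define a list and are near 0, a set of neutrophil genes chosen by name, and the 10 of highest TPM. Some genes that this rule names are not reported here.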

Additional observations from a re-analysis of the deposited data

How the results depend on the processing

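The count of genes passing, 0 by edgeR, was 8 by DESeq2, 1 without the count filter, and 0 by limma-voom, limma-voom with quality weights, limma on log2(TPM + 1) or log2(TPM + 0.1), RLE normalization, a filter at 10 CPM, and a fit of all 4 groups. Leaving out 1 library gave 0 to 201, and 201 (173 higher and 28 lower) came only without TN1 tag_191, which left TN1 tag_482 alone and assumed to vary like TN2, and moved the median of all genes to 0.45. Without both TN1 tag_482 and TN2 tag_1341 it was 108 (103 higher and 5 lower). For the difference of effects between the cell types the count of 0 became 1 without the filter, 21 by DESeq2, and 0 to 380 when leaving out 1 library, with 380 without neutrophil TN1 tag_191 and 71 without monocyte TN1 tag_191. With the tag as a replicate block 0 genes passed. The data did not decide whether tags pair the cell types. Deviations of same-tag neutrophil and monocyte libraries from their group means correlated at 0.09 in TN1, a value that both TN1 tags share by construction. In TN2 they correlated at -0.08, 0.38 and 0.35 for tag_367, tag_706 and tag_1341. Here tag_706 and tag_1341 correlated best with the same tag, and tag_367 with tag_706 (0.18).

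Of 1855 log2 differences (118 named genes under up to 16 other settings), 1782 kept their sign and stayed short of the threshold, 29 kept their sign and passed it, and 44 in 18 genes changed sign. Without both TN1 tag_482 and TN2 tag_1341 the difference was 0.38 for Camp, -0.44 for Ccr2, -0.0291 for Ifngr1, -0.11 for Ifngr2, 1.08 for Mcm3, 0.13 for Serpinb1a, 0.18 for Tmsb4x and 1.26 for mt-Cytb. By limma-voom with quality weights the difference was -0.78 for Ccr2, -0.0005 for Ifngr1, 0.75 for Nos2 and -0.0394 for S100a9. With all 4 groups in the fit the difference was 0.0246 for Csf3r, 0.0987 for Ptgs2 and 0.0151 for Tmsb4x. On log2(TPM + 1), with or without the filter the difference was 0.0157 for Ptgs2 and -0.12 for Vegfa. On log2(TPM + 0.1) the difference was -0.0303 for Ccr2, 0.0158 for Ptgs2 and -0.13 for Vegfa. With each library left out in turn it ranged from -0.67 to 1.69 for Ccr2, from -0.37 to 0.11 for Cd14, from -0.0396 to 0.62 for Cd3d, from -0.18 to 0.0078 for Csf3r, from -1.49 to 0.19 for Cybb, from -0.0372 to 0.16 for Ifngr1, from -3.48 to 1.37 for Mcm3, from -2.09 to 6.37 for Nos2, from -0.15 to 0.16 for Ptgs2, from -0.14 to 0.25 for S100a9, from -2.12 to 0.0412 for Serpinb1a, from -0.12 to 0.23 for Srgn, from -0.85 to 0.25 for Thbs1, from -0.41 to 0.27 for Tmsb4x, from -0.16 to 0.52 for Vegfa and from -3.39 to 1.06 for mt-Cytb. Of 686 list medians, 607 moved by less than the spread between libraries.

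At 8788542 counts or more per library, genes at or under 1 CPM rest on few reads, and their differences are the least certain. The causes of these changes were not tested.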

Other observations

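The hypoxia response genes not yet described went in both directions. The lipid droplet gene Hilpda stood at 304 and 127 CPM in TN1 and 274, 378 and 392 CPM in TN2 (log2 difference 0.69 ± 0.42, and 0.10 without the pair), and the stress gene Ndrg1 at 213 and 365 CPM in TN1 and 113, 186 and 225 CPM in TN2 (log2 difference -0.73 ± 0.39), both with overlap. The mTOR inhibitor gene Ddit4 was low at 1.73 and 0 CPM in TN1 and 3.17, 3.31 and 5.53 CPM in TN2 (log2 difference 2.18 ± 1.69, and 0.90 without the pair). Among macrophage-associated genes the apolipoprotein gene Apoe stood at 13.9 and 51.9 CPM in TN1 and 51.1, 64.9 and 58.4 CPM in TN2 (log2 difference 0.82 ± 0.57, and 2.07 without the pair), where TN1 tag_482 lay within the range of the TN2 libraries. Of the eicosanoid and lipid genes, the triglyceride synthesis gene Dgat1 stood at 1004 and 584 CPM in TN1 and 666, 372 and 360.3 CPM in TN2 (log2 difference -0.77 ± 0.39), with TN1 tag_191 the highest of the 5 libraries.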
